A study of Homo sapiens and Homo sapiens
Mus with 12 samples.

Results

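The 10 genes described here are inflammatory chemokine, cytokine and NF-kB genes: CXCL1, CXCL2, CXCL3, CXCL8, IL6, LIF, NFKBIA, NFKB1, RELA and TNFAIP3. They are 10 of 21479 genes in the count table of cultured cells and 9 of 26813 in the human table of the tumors, where IL6 was not analysed here. The list was chosen by name, and CXCL1 and CXCL8 were chosen for their rise in CDH11 KD samples, so their levels in cultured cells are given as a description without a test. The choice did not say in which samples the rise was seen, so the tests of CXCL1 and CXCL8 in tumors may also rest on it and are no independent evidence.

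RNA-seq was performed on UM-UC-3 cells, a cell line from advanced bladder cancer, grown in culture (9 libraries) or as subcutaneous xenograft tumors (15 tumors). The design compares knockdown of CDH11, the gene of the adhesion protein cadherin-11, with a control, and the members are used to ask how inflammatory transcripts differed between these groups. Every group, controls included, carried a GIPZ lentiviral vector with GFP and was sorted for GFP, so each is a pool of infected cells. shCtrl cells carried a nonsilencing hairpin, and sh#1 and sh#2 cells carried hairpins against different sequences of CDH11, which are called CDH11 KD when both are meant. There were 3 cultured libraries and 5 tumors of each group. Cultured cells were sampled after 24 h in plates. Tumors grew in male BALB/cAJcl-nu/nu nude mice, which were 5 weeks old at injection, and were taken 4 weeks later. Nude mice lack mature T cells but keep neutrophils, macrophages and other innate cells.

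NF-kB is a family of transcription factors held inactive in the cytoplasm by inhibitor proteins until receptors of TNF, IL1 and similar signals release it. NFKB1 (the precursor of p50) and RELA (p65) form its best known dimer, NFKBIA (IkB-alpha) is the classical inhibitor, and TNFAIP3 (A20) is a ubiquitin-editing enzyme that shuts the pathway down. NFKBIA and TNFAIP3 are themselves NF-kB targets, as are the genes of the neutrophil chemokines CXCL1, CXCL2, CXCL3 and CXCL8 and of the cytokines IL6 and LIF, and chemokines of this kind are known in bladder tumors for drawing in neutrophils.

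The chemokine genes lie in a cluster on chromosome 4, CXCL8 at chr4:73740519-73743716 and CXCL1 at chr4:73869393-73871308 on the plus strand, and CXCL3 at chr4:74036589-74038807 and CXCL2 at chr4:74097040-74099196 on the minus strand (hg38, GENCODE 44). NFKB1 lies on the same chromosome at chr4:102501330-102617302. NFKBIA is at chr14:35401079-35404749, RELA at chr11:65653599-65663090, TNFAIP3 at chr6:137867214-137883314, LIF at chr22:30240453-30246759 and IL6 at chr7:22725884-22732002. Promoter sequences (GRCh38.p14, RefSeq, from 250 bases before to 50 after the start) were held for 9 of the 10 members, all but LIF. Both strands were searched for the 9-letter string GGAATTTCC, a core of the site that NF-kB binds, and for the 10-letter kappa B consensus, which overlaps it. The core was present in the promoters of CXCL1, CXCL2, CXCL3, CXCL8, NFKB1 and NFKBIA, and in 0.461% of all 35116 promoters of the same length. The kappa B consensus was present in those of CXCL1, CXCL2, CXCL3, IL6, NFKB1, NFKBIA and TNFAIP3, and in 5.91% of all promoters. The sites upstream of the annotated genes are printed below because the same letters stand before genes that differed between the groups and before genes that did not. Capitals mark the matches, and each sequence runs 5′ to 3′ on the gene's strand:
CXCL1 (chr4:73869289-73869349, plus strand): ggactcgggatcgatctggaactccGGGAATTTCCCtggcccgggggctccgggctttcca
CXCL2 (chr4:74099238-74099298, minus strand): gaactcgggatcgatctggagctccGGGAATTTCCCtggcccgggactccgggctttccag
CXCL8 (chr4:73740453-73740511, plus strand): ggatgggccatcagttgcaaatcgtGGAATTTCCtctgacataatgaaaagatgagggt
NFKB1 (chr4:102501285-102501329, plus strand): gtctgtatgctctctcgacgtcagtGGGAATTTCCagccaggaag
NFKBIA (chr14:35404796-35404855, minus strand): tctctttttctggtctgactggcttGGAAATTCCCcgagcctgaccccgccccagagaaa
TNFAIP3 (chr6:137867167-137867213, plus strand): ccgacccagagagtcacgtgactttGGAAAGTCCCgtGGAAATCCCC

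CXCL1 and CXCL2 carried the same 11 letters, with 85.1% identity between the promoters over 222 aligned bases, and CXCL1 shared 86.8% with CXCL3. CXCL8 carried the core in another context, and its promoter shared 53.6% with that of CXCL1. The CXCL1, CXCL2 and CXCL3 transcripts are also alike, and 3 of 1100, 26 of 1041 and 23 of 1001 windows of 75 bases, the length of the reads, were identical to another of these transcripts. Reads from those windows cannot be assigned to 1 gene, and how they were counted is not given in the sources used here.

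The total counts on genes were 2273182 to 2777019 in cultured libraries and 414849 to 1248977 for human genes in tumors, where the lowest total belonged to sh#1 tumor 1. Counts of CDH11 were 2, 4 and 4 in shCtrl, 0, 0 and 1 in sh#1 and 1, 2 and 0 in sh#2 cultures, too few for a test, and in tumors its normalized CPM was 16.6 ± 7.65 (SD, n = 5) in shCtrl, 4.99 ± 3.18 in sh#1 and 10.1 ± 5.72 in sh#2. The difference of CDH11 in tumors passed the threshold of 0.1 for sh#1 (log2 difference -1.67, edgeR adjusted p = 0.0260), but not for sh#2 (-0.73, adjusted p = 0.347) or for both hairpins together (-1.13, adjusted p = 0.112). Of the sh#2 tumors 2 of 5 were below the lowest shCtrl tumor, and sh#2 tumor 2 held 18.8 CPM. The unadjusted edgeR p was 0.0450 for sh#2 (95% interval -1.42 to -0.04) and 0.00185 for both hairpins. A lower level in sh#2 tumors was thus not shown at the threshold used, and they are called CDH11 KD by their label. In cultured cells the paper reports reduced CDH11 mRNA and protein with the hairpins. Of the markers of the cell line, KRT8, KRT18, KRT19, VIM, CDH2 and CD44 were detected in culture, CDH1 and EPCAM had 0 counts in every cultured library, and 9 markers of urothelium summed to 2.05 to 5.64 CPM in shCtrl and sh#1 and to 13.1 to 13.4 CPM in sh#2 cultures. The cell line markers summed to 2799 to 3161 CPM in shCtrl and sh#1 and to 4734 to 5193 CPM in sh#2 cultures. VIM held most of that sum, with means of 2237 CPM in shCtrl and 3222 in CDH11 KD, while CDH2 and KRT19 were lower in CDH11 KD. UPK1A held most of the difference in the urothelium sum (means of 0.766 and 4.86 CPM). PPARG was also higher in CDH11 KD (1.32 and 2.01) and GATA3 was level (1.59 and 1.58). On few counts UPK2 and KRT5 were lower and KRT20 was higher. In tumors 5 urothelium markers were in the human table, with median sums of 6.84 CPM in shCtrl, 14.1 in sh#1 and 12.5 in sh#2. GATA3, PPARG and KRT5 had higher means in CDH11 KD tumors, and UPK1A and UPK2 lower ones. All shCtrl tumors were sequenced in 1 library mix, all sh#1 tumors in another and all sh#2 tumors in yet another, so group and mix cannot be told apart in tumors. No source says that cultured replicates came from separate cultures, so their p-values measure the spread between these libraries, which may be technical. In bulk samples, fewer cells making a transcript and less of it per cell cannot be told apart.

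Values below are counts as deposited and normalized CPM, which is the count scaled to a common library size by the TMM method. Differences are log2 fold changes with a standard error (SE) from edgeR, and adjusted p is the Benjamini-Hochberg value over all genes tested, read at the thresholds of the study, 0.05 in cultured cells and 0.1 in tumors.

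CXCL8 stood apart from the other chemokines in cultured cells. CXCL8, the human neutrophil chemokine interleukin-8, was counted 6, 5 and 7 times in the shCtrl libraries. The sh#1 libraries held 60, 64 and 66 counts and the sh#2 libraries 86, 60 and 67. Every CDH11 KD library was above every shCtrl library. Its normalized CPM was 2.36 ± 0.309 (SD, n = 3) in shCtrl, 25.2 ± 2.35 in sh#1 and 33.8 ± 5.82 in sh#2, a log2 difference of 3.60 (SE 0.28, 12.1-fold) for CDH11 KD, 3.38 (SE 0.28) for sh#1 and 3.81 (SE 0.27) for sh#2. CXCL8 was chosen for this rise, and none of its 3 shCtrl libraries reached the minimum of the low-count filter (4.26 CPM).

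CXCL1, the first of the GRO chemokines, differed far less. Counts of CXCL1 were 41, 38 and 57 in shCtrl, 55, 69 and 77 in sh#1 and 62, 42 and 72 in sh#2. Library 2 of sh#2 lay within the shCtrl range after normalization. The log2 difference was 0.61 (SE 0.19, 1.52-fold) for CDH11 KD, 0.57 for sh#1 and 0.65 for sh#2. It too was chosen for its rise and has no test here.

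CXCL2, which acts on the same receptor as CXCL1, had more counts in sh#1 than in shCtrl or sh#2 cultures. Counts of CXCL2 were 10, 7 and 17 in shCtrl, 21, 32 and 38 in sh#1 and 9, 11 and 7 in sh#2 cells. All sh#1 libraries were above shCtrl, while sh#2 libraries lay among the shCtrl values. The log2 difference was 1.42 (SE 0.31, edgeR adjusted p = 0.000425) for sh#1 and -0.06 (SE 0.39, adjusted p = 0.927) for sh#2. The difference between the hairpins was 1.47 (SE 0.33, edgeR adjusted p = 0.000462), and the value for both together, 0.90 (SE 0.46), did not pass (adjusted p = 0.199). Only 1 of 3 shCtrl and 1 of 3 sh#2 libraries reached the minimum of the filter, so CXCL2 entered the test through sh#1. Its adjusted p-values are therefore not read as evidence.

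CXCL3 had 28, 37 and 51 counts in shCtrl, 35, 40 and 41 in sh#1 and 32, 23 and 38 in sh#2. The groups overlapped. Its log2 difference was -0.01 (SE 0.21, 95% interval -0.43 to 0.40, edgeR adjusted p = 0.972), and its sign turned when shCtrl library 3, sh#1 library 1 or sh#2 library 2 was left out. CXCL3 and CXCL1, with promoters 86.8% alike, thus gave values of -0.01 and 0.61, a difference that was not tested. The summed counts of CXCL1, CXCL2 and CXCL3 gave 0.43 (SE 0.17), again without a test because CXCL1 is part of the sum.

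**Figure D1:**
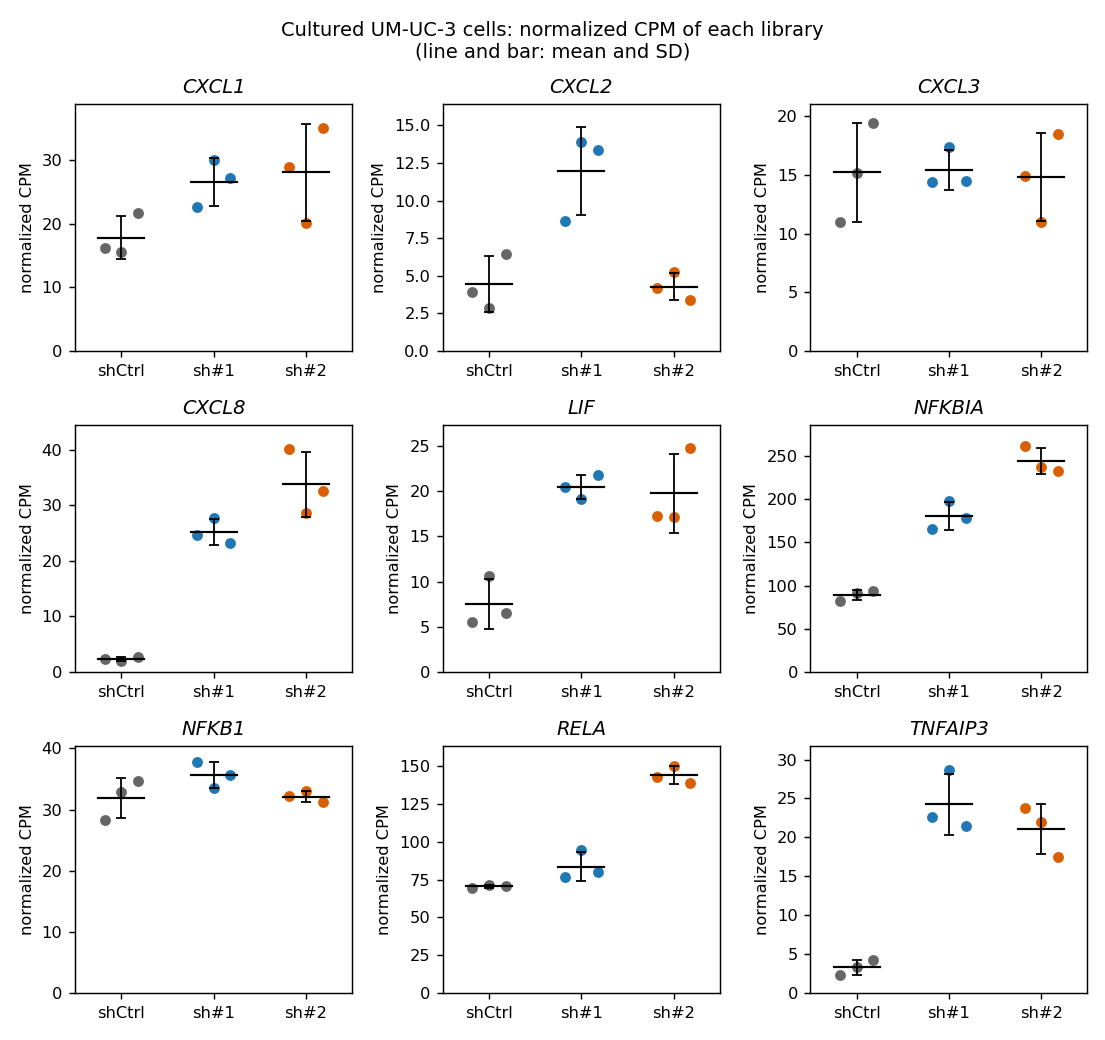
Normalized CPM (y axis, from 0) of 9 genes in each cultured library of shCtrl, sh#1 and sh#2 cells (points), with the mean and SD of 3 libraries (line and bar). The CXCL8, TNFAIP3, NFKBIA, LIF and RELA panels show all 6 CDH11 KD libraries above the shCtrl libraries. CXCL2 is high in sh#1 libraries, and RELA is highest in sh#2 libraries.

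IL6 and LIF, cytokines that signal through the shared receptor chain IL6ST, behaved differently in these counts. IL6 had 0 counts in all 9 libraries, which at this depth does not show that the transcript was absent. LIF had 14, 26 and 17 counts in shCtrl, 50, 44 and 62 in sh#1 and 37, 36 and 51 in sh#2. Every CDH11 KD library was above every shCtrl library. LIF rose by a log2 difference of 1.42 (SE 0.23, edgeR adjusted p = 0.000405), with 1.45 (SE 0.24) for sh#1 and 1.39 (SE 0.24) for sh#2, both past the threshold.

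Of the NF-kB subunits, RELA differed between the hairpins and NFKB1 did not pass in any comparison. RELA had 177, 174 and 186 counts in shCtrl, 187, 217 and 227 in sh#1 and 306, 315 and 285 in sh#2. Every sh#2 library was well above the others, and the sh#1 libraries were slightly above shCtrl after normalization. RELA rose by 1.03 on the log2 scale (SE 0.10, edgeR adjusted p = 2.80e-13) in sh#2 and differed by 0.24 (SE 0.10, adjusted p = 0.0804) in sh#1, and the hairpins differed by -0.79 (SE 0.09, adjusted p = 1.86e-09) for sh#1 against sh#2. Both hairpins against shCtrl gave 0.68 (SE 0.23, edgeR adjusted p = 0.0714). This value passed the threshold with DESeq2 (0.0136), with 3 groups (2.74e-08), and without sh#1 library 1 (0.0195) or 3 (0.0281). The marker sums of the cell line and of urothelium were also highest in sh#2 cultures, as were RELA and NFKBIA, and their part in these results was not tested. NFKB1 had 72, 80 and 91 counts in shCtrl, 92, 77 and 101 in sh#1 and 69, 69 and 64 in sh#2, a log2 difference of 0.09 (SE 0.13, 95% interval -0.17 to 0.34, edgeR adjusted p = 0.686).

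Both inhibitors of the pathway were higher in CDH11 KD cultures. NFKBIA had 209, 224 and 246 counts in shCtrl, 404, 455 and 505 in sh#1 and 560, 497 and 479 in sh#2. CDH11 KD did not overlap shCtrl. NFKBIA rose by 1.25 (SE 0.14, 2.37-fold, edgeR adjusted p = 1.14e-05), by 1.01 (SE 0.09) in sh#1 and by 1.45 (SE 0.08) in sh#2. The hairpins differed by -0.44 (SE 0.08, adjusted p = 1.40e-05) for sh#1 against sh#2. TNFAIP3 had 6, 8 and 11 counts in shCtrl, 55, 66 and 61 in sh#1 and 51, 46 and 36 in sh#2, again without overlap. TNFAIP3 rose by 2.77 (SE 0.25, 6.81-fold, edgeR adjusted p = 7.42e-07), by 2.85 (SE 0.27) in sh#1 and by 2.67 (SE 0.28) in sh#2. Of its shCtrl libraries, 1 of 3 reached the minimum of the filter. TNFAIP3 thus entered the test through the CDH11 KD libraries, and its adjusted p is not read as evidence.

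Leaving out CXCL1 and CXCL8, 3 of 8 members passed in cultured CDH11 KD cells (LIF, NFKBIA and TNFAIP3, all higher), where 17.4% of all 9859 genes tested passed. For sh#1 against shCtrl 4 of 8 passed beside 22.4% of all genes, and for sh#2 4 of 8 beside 38.3%. For sh#1 against sh#2, 3 of 8 passed beside 24.7%. The hairpin comparisons share the shCtrl libraries. TNFAIP3 and CXCL2 entered the test mainly through the libraries in which they were high, so nothing is read from these counts. The share of all genes whose groups did not overlap was not computed.

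Compared per kilobase of the canonical transcript, NFKBIA was the most abundant member in every cultured group, with levels of 57.3 ± 3.95 CPM per kb (SD, n = 3) in shCtrl, 116 ± 10.4 in sh#1 and 157 ± 9.69 in sh#2, followed by RELA with 28.1 ± 0.343, 33.2 ± 3.73 and 57.2 ± 2.37. In shCtrl the next levels were CXCL1 at 15.2 ± 2.89 and CXCL3 at 14.2 ± 3.91 CPM per kb, which did not differ beyond their spread. NFKB1 (7.88 ± 0.803), CXCL2 (3.97 ± 1.66), LIF (1.95 ± 0.707), CXCL8 (1.44 ± 0.188), TNFAIP3 (0.703 ± 0.196) and IL6 (0) followed, and the SD of LIF reached the level of CXCL8. In sh#1 cells CXCL8 stood at 15.4 ± 1.43 CPM per kb, below CXCL1 (22.6 ± 3.20) and within the spread of CXCL3 (14.3 ± 1.61). In sh#2 cells it stood at 20.6 ± 3.54, within the spread of CXCL1 (23.9 ± 6.42) and above CXCL3 (13.8 ± 3.50).

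CXCL1 was the single member past the threshold for both hairpins together in tumors, on few counts. CXCL1 had 5, 2, 3, 7 and 1 counts in shCtrl tumors, 5, 15, 15, 5 and 6 in sh#1 and 5, 6, 13, 16 and 4 in sh#2. Its normalized CPM was 3.47 ± 1.83 (SD, n = 5) in shCtrl, 11.6 ± 5.50 in sh#1 and 10.5 ± 4.26 in sh#2, and 8 of 10 CDH11 KD tumors were above the highest shCtrl tumor. The log2 difference was 1.55 (SE 0.38, 2.93-fold, edgeR adjusted p = 0.0426), with 1.57 (SE 0.43, adjusted p = 0.0729) for sh#1 and 1.53 (SE 0.44, adjusted p = 0.0665) for sh#2. The call for both hairpins was lost without shCtrl tumor 1 (edgeR adjusted p = 0.126) or 2 (0.143) and when the mouse:human ratio of counts was made a covariate (0.120), with log2 differences of 1.42 to 1.59. The sh#1 call was lost without shCtrl tumor 1 or 2 or sh#1 tumor 1, 2 or 3 and with the covariate (edgeR adjusted p of 0.123 to 0.212, log2 differences of 1.36 to 1.61). The sh#2 call was lost without shCtrl tumor 1, 2 or 3 or sh#2 tumor 3 or 4 and with the covariate (edgeR adjusted p of 0.110 to 0.216, log2 differences of 1.27 to 1.56). No shCtrl tumor reached the minimum of the filter (10.9 CPM), and without sh#1 tumor 1, 2 or 3 or sh#2 tumor 3 or 4 the gene dropped out of the comparison of both hairpins with shCtrl.

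CXCL8 passed in sh#1 tumors against shCtrl and not in sh#2 tumors. CXCL8 had 11, 5, 12, 9 and 7 counts in shCtrl tumors, 19, 28, 23, 11 and 14 in sh#1 and 3, 12, 6, 13 and 4 in sh#2. In normalized CPM the sh#1 tumors held 52.7, 31.6, 24.4, 12.0 and 14.1, beside 5.41 to 13.7 in shCtrl and 4.27 to 16.1 in sh#2 tumors. The log2 difference was 1.39 (SE 0.36, edgeR adjusted p = 0.0600) for sh#1 and 0.07 (SE 0.42, 95% interval -0.76 to 0.90, adjusted p = 0.968) for sh#2, and the hairpins differed by 1.32 (SE 0.37, adjusted p = 0.108), which did not pass. Both together gave 0.87 (SE 0.46, edgeR adjusted p = 0.449). The sh#1 call was lost without shCtrl tumor 1 (edgeR adjusted p = 0.181), 2 (0.173) or 4 (0.157), without sh#1 tumor 1 (0.132), 2 (0.149) or 3 (0.123), with the replicate block (0.102) and with the covariate (0.155), where the log2 difference was 1.08 to 1.41. The difference between the hairpins passed with the covariate (edgeR adjusted p = 0.0338), without a low-count filter (0.00737), with upper quartile normalization (0.0920), and without shCtrl tumor 3, sh#1 tumor 4 or 5, or sh#2 tumor 4 (0.0383 to 0.0941).

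CXCL2 and CXCL3 did not pass in tumors with all libraries included. CXCL2 had 7, 7, 14, 9 and 5 counts in shCtrl, 7, 10, 28, 15 and 9 in sh#1 and 4, 7, 14, 11 and 11 in sh#2 tumors, and CXCL3 had 18, 17, 14, 12 and 2, then 9, 32, 21, 10 and 23, then 5, 14, 15, 17 and 8 counts. The groups overlapped for both genes. The log2 difference of CXCL2 was 0.71 (SE 0.32, edgeR adjusted p = 0.348), with 0.93 (adjusted p = 0.246) for sh#1 and 0.44 (0.660) for sh#2. That of CXCL3 was 0.56 (SE 0.30, edgeR adjusted p = 0.443), with 0.84 (adjusted p = 0.234) for sh#1 and 0.20 (0.858) for sh#2. In sh#1 tumors CXCL2 passed without shCtrl tumor 3 (1.24, edgeR adjusted p = 0.0956) and CXCL3 without sh#1 tumor 4 (1.04, adjusted p = 0.0973). Summed into 1 feature, CXCL1, CXCL2 and CXCL3 gave 0.81 (SE 0.23, edgeR adjusted p = 0.0952) for CDH11 KD, 1.02 (SE 0.24, adjusted p = 0.0237) for sh#1 and 0.57 (SE 0.25, adjusted p = 0.290) for sh#2, and this sum contains CXCL1.

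**Figure D2:**
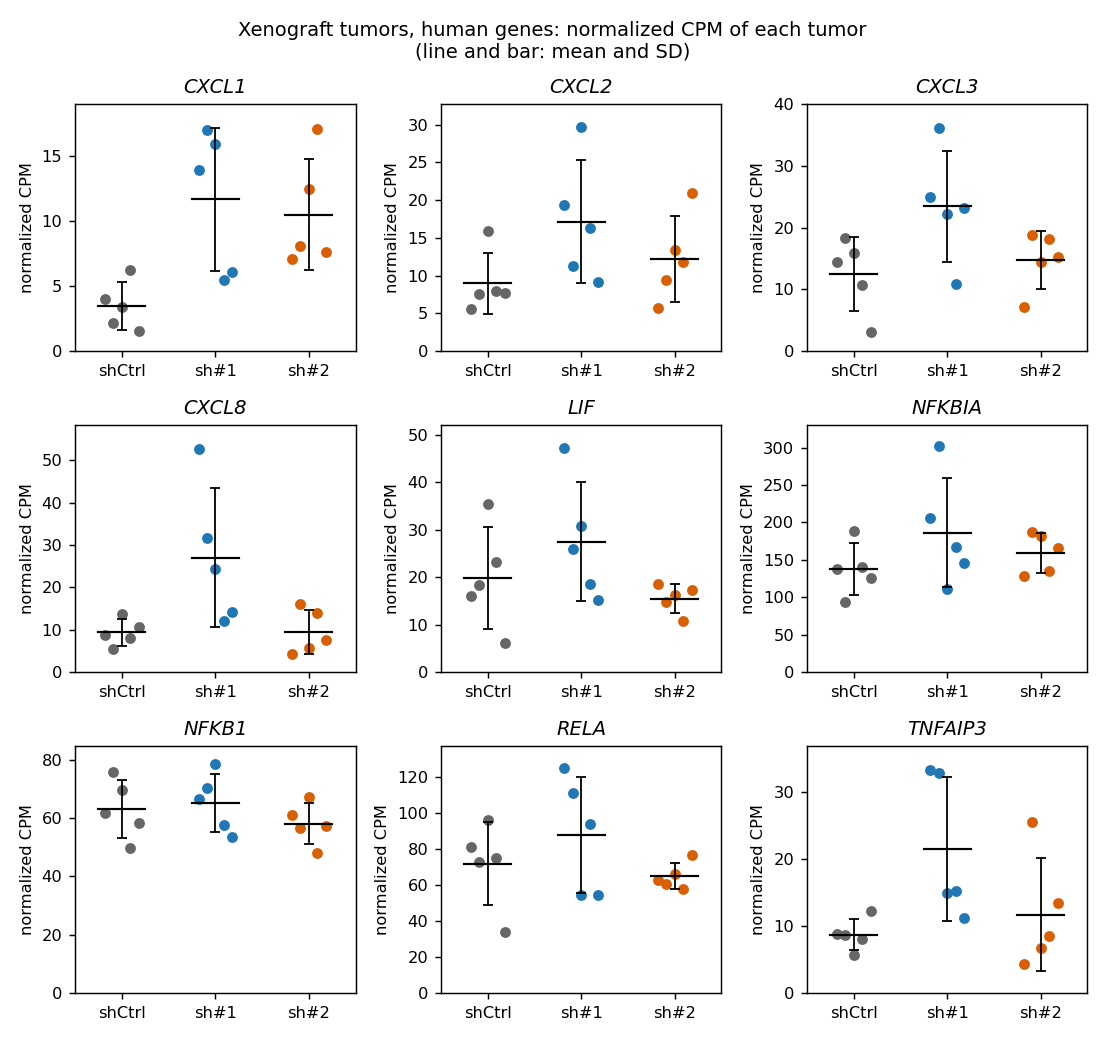
Normalized CPM (y axis, from 0) of human reads of 9 genes in each xenograft tumor of shCtrl, sh#1 and sh#2 cells (points), with the mean and SD of 5 tumors (line and bar). In the CXCL1 panel 8 of 10 CDH11 KD tumors lie above all shCtrl tumors, CXCL8 is high in part of the sh#1 tumors, and the NFKB1, RELA and LIF panels overlap throughout.

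LIF and NFKBIA, which rose in culture, did not pass in tumors. LIF had 20, 17, 31, 26 and 4 counts in shCtrl, 17, 23, 29, 17 and 15 in sh#1 and 13, 11, 17, 10 and 9 in sh#2 tumors, a log2 difference of 0.01 (SE 0.30, edgeR adjusted p = 0.997) whose sign turned in 10 of 22 alternatives. NFKBIA had 172, 86, 166, 158 and 82 counts in shCtrl, 74, 267, 105, 154 and 144 in sh#1 and 90, 139, 190, 126 and 87 in sh#2, a difference of 0.32 (SE 0.21, 95% interval -0.08 to 0.73, edgeR adjusted p = 0.554). The interval of NFKBIA in tumors ends below that of cultured cells (0.97 to 1.52), although the 2 systems were prepared, sequenced and tested separately and their difference was not tested.

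TNFAIP3 did not pass in tumors with all libraries and the low-count filter, and its highest levels lay in sh#1 tumors 1 and 2. TNFAIP3 had 11, 8, 5, 9 and 8 counts in shCtrl tumors, 12, 29, 14, 14 and 11 in sh#1 and 3, 19, 7, 8 and 7 in sh#2. In normalized CPM, sh#1 tumors 1 and 2 held 33.3 and 32.8 and sh#2 tumor 2 held 25.5, beside 5.70 to 12.3 in shCtrl tumors. The log2 difference was 0.87 (SE 0.38, edgeR adjusted p = 0.336) for both hairpins, 1.22 (SE 0.37, adjusted p = 0.132) for sh#1 and 0.40 (SE 0.42, adjusted p = 0.736) for sh#2. The sh#1 value passed without a low-count filter (edgeR adjusted p = 0.0292) and without shCtrl tumor 5 (0.0916), sh#1 tumor 5 (0.0964) or sh#2 tumor 2 (0.0798).

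The subunits NFKB1 and RELA did not pass in tumors. NFKB1 had 77, 70, 61, 56 and 38 counts in shCtrl, 24, 62, 74, 53 and 53 in sh#1 and 43, 42, 70, 45 and 30 in sh#2, a log2 difference of -0.03 (SE 0.14, 95% interval -0.30 to 0.24, edgeR adjusted p = 0.956). RELA had 101, 67, 84, 84 and 22 counts in shCtrl, 45, 98, 51, 86 and 54 in sh#1 and 44, 45, 69, 54 and 40 in sh#2, a difference of 0.03 (SE 0.22, 95% interval -0.39 to 0.45, edgeR adjusted p = 0.977). The signs of both values turned under some alternatives.

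In tumors 1 of the 9 members tested passed for CDH11 KD, where 1.51% of all 9184 human genes tested passed. For sh#1 2 of 9 passed (CXCL1 and CXCL8) beside 1.48% of all genes, and for sh#2 1 of 9 (CXCL1) beside 2.68%. For sh#1 against sh#2, 0 of 9 passed beside 1.19%, by edgeR and by DESeq2, and 4 of 9 had an unadjusted p under 0.05. CXCL1, CXCL2, CXCL8 and TNFAIP3 reached the minimum of the filter in 0, 1, 2 and 1 of 5 shCtrl tumors and in more of the CDH11 KD tumors, and CXCL1 and CXCL8 were chosen for their rise, so nothing is read from these counts.

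**Figure D3:**
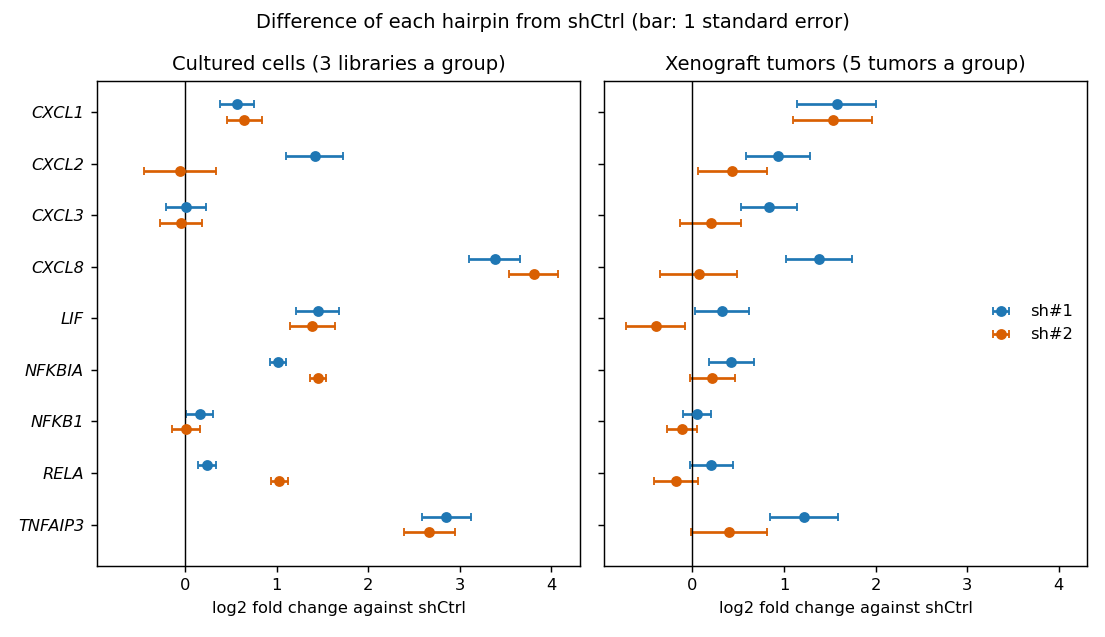
Log2 fold change (x axis) of 9 genes for sh#1 and sh#2 against shCtrl in cultured cells (left) and in xenograft tumors (right), with bars of 1 standard error. In culture the hairpins lie together for CXCL8, LIF and TNFAIP3 and apart for CXCL2 and RELA. In tumors they lie together for CXCL1 and apart for CXCL8.

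The other genes of the pathway were described by 10 lists of 173 genes, of which 101 were tested in culture. Over all lists, 29 were higher in CDH11 KD cultures and 5 were lower. Counts stand beside a background of 17.4% of all genes called in either direction and 9.12% called higher. Medians stand beside a median of 0.00 over all genes.

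Among NF-kB subunits and inhibitors other than the members, 4 of 8 genes tested were higher and 0 lower, with a median log2 difference of 0.33. RELB and NFKB2, the subunits of the noncanonical dimer, rose by 0.85 (SE 0.15) and 0.85 (SE 0.16), and NFKBIE, an inhibitor related to NFKBIA, by 1.23 (SE 0.35). The count was 2 without shCtrl library 1 or 3. Among kinases and adaptors 4 of 24 were higher and 1 lower, with a median of 0.03. The share called in either direction was near that of all genes. TAB2, which links TAK1 to upstream ubiquitin chains, rose by 0.51 (SE 0.13), and MALT1 and BCL10, partners in the CARD-BCL10-MALT1 complex, by 0.92 (SE 0.23) and 0.61 (SE 0.16). The count of higher genes was 2 without shCtrl library 1 and 1 without shCtrl library 2 or 3. The lower gene was RNF31, a subunit of the linear ubiquitin ligase complex, at -0.67 (SE 0.21, edgeR adjusted p = 0.0357), and over the alternatives 0 to 3 genes of the list were lower.

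Among feedback regulators 5 of 10 were higher and 1 lower, with a median of 0.63. BIRC3, a ubiquitin ligase of the TNF receptor complex and a classical NF-kB target, rose from 35.8 ± 6.12 CPM in shCtrl (n = 3) to 204 ± 47.7 in CDH11 KD (n = 6), a log2 difference of 2.51 (SE 0.22). Its relative BIRC2 rose by 0.78 (SE 0.11), and N4BP1, which restrains NF-kB signalling, fell by 0.99 on the log2 scale (SE 0.18). The count of higher genes was 3 without shCtrl library 2. Among other NF-kB target genes 6 of 14 were higher and 0 lower, with a median of 0.54. KLF6, a zinc finger factor, rose by 1.25 (SE 0.09), PHLDA1 by 1.19 (SE 0.09) and the stress gene GADD45B by 1.97 (SE 0.17). The 6 also held BCL2A1, an inhibitor of cell death, IER3 and NUAK2.

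Among other cytokines and growth factors 3 of 7 were higher and 0 lower, with a median of 0.61. HBEGF, a ligand of the EGF receptor, rose by 1.04 (SE 0.15), IL11, a cytokine of the IL6 family, by 0.85 (SE 0.19) and IL18 by 0.68 (SE 0.22). The count of higher genes was 2 with upper quartile normalization, with the replicate block and without shCtrl library 1, 2 or 3. It was 4 without sh#1 library 1. In 5 alternatives 1 gene of this list was lower. Of 13 other chemokines 1, CCL2, had enough counts for a test, and it had a log2 difference of -0.03 (SE 0.18, edgeR adjusted p = 0.924). Among receptors 1 of 8 was higher and 1 lower. OSMR, the oncostatin M receptor, rose by 0.71 (SE 0.20), a call lost without shCtrl library 1, 2 or 3, and TNFRSF1A, the main TNF receptor, fell by 0.62 on the log2 scale (SE 0.13).

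In the list for the response to IL6 and LIF 4 of 10 were higher and 0 lower, with a median of 0.26, and in 4 alternatives 1 gene was lower. Higher genes numbered 3 with DESeq2, upper quartile normalization or the replicate block. They also numbered 3 without shCtrl library 1 or 3, sh#1 library 1 or 3, or sh#2 library 1, 2 or 3. FOSL1, an AP-1 subunit, rose by 1.17 (SE 0.11), the kinase PIM1 by 1.63 (SE 0.18) and the transcription factor CEBPB by 1.36 (SE 0.21). Among proteins that act on chemokine mRNA decay 1 of 7 was higher and 2 were lower, with a median of -0.26. ZFP36L2 fell by 1.14 on the log2 scale (SE 0.24), HNRNPD fell by 0.26 (SE 0.09), and ZFP36L1 rose by 0.43 (SE 0.13). Without shCtrl library 1, 2 or 3 or sh#2 library 2 or 3, 0 genes were higher and 1 was lower, and without sh#2 library 1 or without a low-count filter 1 was lower. Of 12 interferon-stimulated genes tested 1, ISG20, was higher, by 1.00 (SE 0.24), with a median of -0.03 over the list, and its call was lost without shCtrl library 2 or 3.

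**Figure D4:**
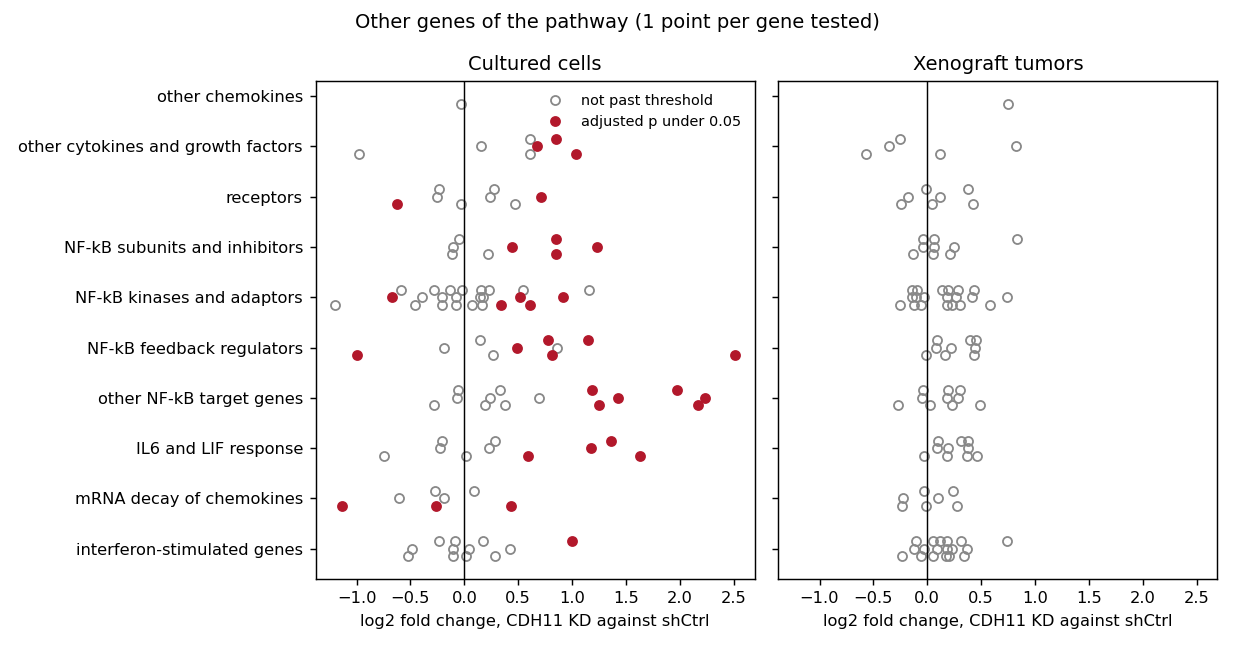
Log2 fold change of CDH11 KD against shCtrl (x axis) of each gene tested in 10 lists of the pathway, in cultured cells (left) and tumors (right), with filled points past the threshold (adjusted p under 0.05 in culture, under 0.1 in tumors). Of 101 genes in culture 29 are higher and 5 lower, and the tumor panel has no filled points.

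In tumors 0 of 96 genes of these lists passed for CDH11 KD by edgeR, beside 1.51% of all genes. DESeq2 called 1 of them, and 13 had an unadjusted p under 0.05. Without a low-count filter 1 gene was higher in each of 3 lists, without shCtrl tumor 3 another NF-kB target was higher, and without shCtrl tumor 5 a receptor was lower. List medians lay between -0.26 and 0.75 beside 0.01 over all genes, and the value of 0.75 was that of CCL2, the single chemokine tested. For sh#1, where 1.48% of all genes passed, TAB2 (log2 difference 0.62, edgeR adjusted p = 0.0704) and IL18 (1.18, adjusted p = 0.00335) were higher and IRAK1, a kinase of IL1 receptor signalling, was lower (-0.42, adjusted p = 0.0708). For sh#2, where 2.68% of all genes passed, 0 genes of any list passed.

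The genes whose log2 CPM followed that of CXCL8 most closely over the 9 cultured libraries were ANGPTL4 (Pearson r = 0.995), CCN1 (0.995), PFKFB4 (0.995), JUN (0.994) and BHLHE41 (0.993), out of 8110 genes. Of the members NFKBIA (0.974) and TNFAIP3 (0.974) came closest and CXCL3 (0.05) was the least alike. These points share their libraries and form 3 groups, so any gene that separates CDH11 KD from shCtrl scores high. Over the 15 tumors the genes closest to CXCL8 were NUP58 (0.858), TMSB10 (0.848), FAM177A1 (0.841), NDUFS5 (0.821) and DAZAP2 (0.817), out of 6445. TNFAIP3 (0.806) was closest among the members and NFKB1 (0.187) least.

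Markers of human leukocytes were checked because leukocytes also make these chemokines. In culture the summed level of 10 markers was 30.8 to 35.1 CPM in shCtrl, 42.6 to 48.8 in sh#1 and 54.6 to 73.5 in sh#2. PTPRC, CD3E, FCGR3A and S100A8 had 0 counts in every cultured library and CD68, a lysosomal protein also made by tumor cells, held nearly all of the sum, with 75 to 150 counts a library. In tumors 7 of these markers were in the human table and summed to at most 6.13 CPM. CD68 had 0 to 1 human counts a tumor there, far fewer than in culture, and the cause was not tested.

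Reads of the same tumors were also counted on mouse genes. Mouse reads made up 10.4% to 14.4% of counts in shCtrl tumors, 10.4% to 30.0% in sh#1 and 13.0% to 18.8% in sh#2. Mouse Cxcl1, Cxcl2 and Cxcl3, the host's neutrophil chemokines, summed to 3, 2, 3, 2 and 2 counts in shCtrl tumors, 110, 18, 7, 3 and 2 in sh#1 and 2, 8, 5, 3 and 4 in sh#2. Tumor 1 of sh#1 held most of them, with 82 counts of Cxcl2, 24 of Cxcl3 and 4 of Cxcl1. The same tumor had the lowest total of human counts, the highest share of mouse counts and the highest human CXCL8 and TNFAIP3 levels. Mouse reads that were counted as human, or the reverse, were not tested, since how the reads were separated is not given in the sources used here. Mice have no gene for CXCL8.

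Il6 had 0 to 2 counts in any tumor. Nfkbia was the single mouse ortholog among the members that passed the low-count filter, with 17, 23, 14, 22 and 7 counts in shCtrl, 82, 20, 15, 13 and 14 in sh#1 and 15, 22, 29, 20 and 13 in sh#2 tumors. Its log2 difference was 0.58 (SE 0.36, edgeR adjusted p = 0.879). Of 1669 mouse genes tested, 0 passed by edgeR (0%), 92 had an unadjusted p under 0.05, and DESeq2 called 1. Mouse leukocyte markers summed to 3214 to 7384 CPM in shCtrl, 3719 to 5036 in sh#1 and 3338 to 6860 in sh#2 tumors. Mouse fibroblast markers summed to 7856 to 21621, 2502 to 13724 and 8852 to 24699 CPM, and endothelial markers to 441 to 685, 350 to 553 and 485 to 825, in the same order. The leukocyte sum was carried mainly by genes of macrophages, such as Lyz2 and C1qa. Genes typical of neutrophils (S100a8, S100a9, Csf3r and Cxcr2) summed to 6, 5, 11, 9 and 6 counts in shCtrl, 26, 27, 13, 14 and 7 in sh#1 and 5, 14, 8, 11 and 8 in sh#2 tumors. In normalized CPM they summed to 36.1 to 110 in shCtrl, 61.3 to 276 in sh#1 and 37.7 to 111 in sh#2 tumors, and the groups overlapped. S100a8, S100a9 and Csf3r had higher means in CDH11 KD than in shCtrl tumors, while Cxcr2 was level (6.68 and 6.34 CPM). Lyz2 (2301 and 2975 CPM) and C1qa (494 and 779) were lower in CDH11 KD. The part of neutrophils in the chemokine levels was not tested. In sh#1 tumor 1 the leukocyte sum was 3719 CPM, the lowest of the sh#1 tumors.

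**Figure D5:**
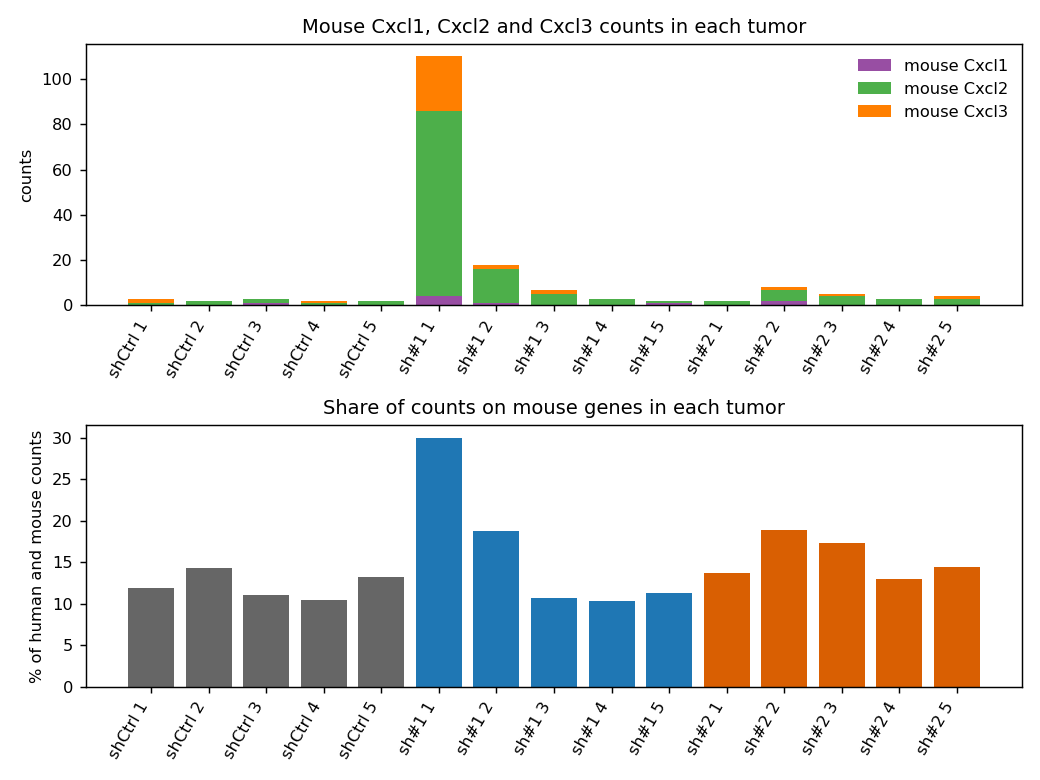
Counts of mouse Cxcl1, Cxcl2 and Cxcl3 (stacked bars, top) and the share of counts on mouse genes (bars, bottom, in % of human and mouse counts) in each of 15 tumors. Tumor 1 of sh#1 reaches 110 chemokine counts and a mouse share of 30.0%, while every shCtrl tumor has 2 or 3 counts.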

How the data were processed

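Counts per gene were deposited by the authors without normalization. The authors' reads were single, of 75 bp. Those of cultured cells went through CLC Genomics Workbench for trimming and RaNAseq for mapping to hg38, and those of tumors through trim galore and HISAT2. The counting tool, the annotation and the separation of mouse from human reads are not given in the sources used here. Of the cultured genes, 13 have no values and were not analysed here.

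The quasi-likelihood test of edgeR 4.0.16 (R 4.3.3) was run with TMM factors, the filterByExpr filter and robust estimates, and p-values were adjusted over all genes tested by Benjamini-Hochberg, with both hairpins against shCtrl as 2 groups and each hairpin in a fit with 3 groups. Alternatives tried were upper quartile factors, DESeq2 1.42.0, the filter removed or set to 10 counts in each library, leaving out 1 replicate at a time, a block for the replicate number, the sum of CXCL1, CXCL2 and CXCL3, both hairpins as the mean of 3 groups, and a covariate for the mouse:human ratio of counts. The fits were tested on simulated counts. Sequences were searched with Python 3.11.15 and Biopython 1.88. Totals of 414849 to 2777019 counts limit genes with few counts, and counting intervals of single libraries were not computed.

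The members and lists were chosen with earlier results of these data known. The genes named are all members, CDH11, up to 3 called genes of each list with the smallest adjusted p, mouse orthologs, and the 5 genes most like CXCL8 in each system with a mean of at least 20 counts. BCL2A1, IER3, NUAK2, CCL2, RNF31, the tumor values of TAB2, IL18 and IRAK1, CD68, and the mouse neutrophil and macrophage genes were named after their values were seen. So were the single markers within the cell line and urothelium sums.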

Additional observations from a re-analysis of the deposited data

Results flagged for a closer look

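In 44 groups of 5 tumors, the value of 1 tumor was far from the others in 8 by Dixon's test. For independent values with a normal spread, chance gives about 1 in 20 groups. Many of these values rest on low counts, and most flagged ones come from sh#1 tumor 1, so nothing is read from the number flagged. Human CXCL2 in shCtrl tumor 3 was 16.0 normalized CPM, beside 5.62 to 8.0 in the other shCtrl tumors. The total of human gene counts was 414849 in sh#1 tumor 1, beside 895180 to 1011977 in the other sh#1 tumors. In the same tumor mouse Cxcl2 was 627 CPM, beside 8.76 to 153, and mouse Cxcl3 was 184 CPM, beside 0 to 20.4. Mouse Nfkbia was 627 CPM there, beside 123 to 204, mouse Rela 115 CPM, beside 17.1 to 30.7, and mouse Tnfaip3 91.8 CPM, beside 10.8 to 20.4. Mouse Lif was 140 CPM in shCtrl tumor 3, beside 36.8 to 65.0 in the other shCtrl tumors. These are 5 genes of the same pathway in 1 tumor, whose human counts also give the highest CXCL8 level, and the cause was not tested.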

How the results depend on the processing

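Of 46 fold changes of members, 39 kept their direction under every alternative run, and 6 of the 7 that turned had a size under 0.1. The 46 hold all fold changes for both hairpins together and only part of the other comparisons. Those left out include values near 0, such as CXCL3 in cultured sh#1 (0.0081) and NFKB1 in cultured sh#2 (0.0073). The 39 are thus not a measure for all members and comparisons. The count of members passing in cultured sh#1 cells was 2 in place of 4 with at least 10 counts in every library. In tumors, that setting and the covariate gave 0 members in each of the CDH11 KD, sh#1 and sh#2 comparisons, and the summed feature gave 0 for sh#2. With 1 replicate left out in turn these counts ranged from 0 to 1 for CDH11 KD, 0 to 3 for sh#1 and 0 to 1 for sh#2, and for sh#1 against sh#2 from 0 to 1. Upper quartile normalization, no low-count filter and the covariate gave 1 for sh#1 against sh#2. The labels do not say whether same-numbered samples were paired. Correlations of their deviations were -0.04 to 0.17 in culture and -0.23 to 0.21 in tumors, which cannot exclude pairing. The replicate block gave 1 member in place of 2 for tumors of sh#1, where CXCL8 was lost. It changed no other count of members by over 1.5 times. With the block the cultured NF-kB subunit list had 2 higher genes in place of 4, the receptors 0 in place of 1, and the mRNA decay list 0 higher and 1 lower. The other cytokines had 2 higher in place of 3 and the feedback regulators 4 in place of 5. The kinases and the IL6 and LIF response each had 3 in place of 4.

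Among these 46 fold changes, signs turned as follows. CXCL3 in cultured CDH11 KD ranged from -0.20 to 0.21 and CXCL2 in cultured sh#2 from -0.28 to 0.33 with 1 replicate left out. In tumors of CDH11 KD, leaving out 1 replicate gave -0.18 to 0.28 for LIF, -0.12 to 0.043 for NFKB1 and -0.13 to 0.14 for RELA, and in sh#2 tumors -0.18 to 0.24 for CXCL8 and -0.12 to 0.59 for TNFAIP3. LIF in tumors was -0.0078 with upper quartile normalization, -0.025 without a filter, -0.11 with the covariate and -0.040 with 3 groups. RELA was -0.0062 without a filter and -0.11 with the covariate. With the covariate in sh#2 tumors CXCL8 was -0.28 and TNFAIP3 -0.0021. The cause of these changes was not tested. CXCL1 had 1 to 16 counts a tumor, and the effect of depth on its calls was not tested.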
